A study of Homo sapiens with 16 samples.

Results

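The lysosomal enzymes and membrane proteins are followed here through 39 gene symbols, chosen by name, and every row of the intensity table with such a symbol was kept as a separate probe. Of these symbols 38 were found, on 43 of the 20589 rows of the table, and 39 probes for 36 symbols passed the detection filter and were tested. The symbol CTSA was not found, but PPGB, its older symbol, was on the array and is described with the proteases as an addition to the rule. MCF10A cells, a nontransformed human mammary epithelial line, were treated at 0 hours with a HER2-specific kinase inhibitor (1 µM), a small molecule whose code name stands on the time axes of the plots. RNA was taken from parallel cultures every 3 hours from 0 to 45 hours and hybridized to the Illumina human Ref8v2 array, with a single array for every one of 16 time points. Cells of 0 hours had no inhibitor, all later cells had it at the same dose, and no time point had a replicate array. No series without inhibitor was analysed here, so the inhibitor, the change of medium at the start of treatment and time in culture cannot be told apart.

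The lysosome is the acidic compartment in which cells break down proteins, glycans and lipids. Soluble hydrolases reach it through the Golgi, most of them by a mannose 6-phosphate tag, and work at the low pH that the V-ATPase proton pump of the membrane sets. The membrane is lined by heavily glycosylated proteins such as LAMP1 and LAMP2, and many of these genes share a promoter element, bound by TFEB and related factors, that holds the letters CACGTG.

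Since the members were compared as a group, the letters before their transcription starts are shown first. RefSeq promoter windows (GRCh38.p14), from 250 bases before to 50 after the start, were matched for 29 of the 39 members, with CTSL2 under its current symbol CTSV and CTSA included. The letters CACGTG, which read the same on both strands, stood in at least 1 window of 10 of the 29 genes (34.5%), against 2396 of 27305 genes in the table (8.77%) and 1727 of 15843 protein-coding genes (10.9%). The longer TCACGTGA, which holds the first motif and also reads the same on both strands, stood in 5 of the 29 (17.2%). It stood in 321 of the 27305 genes (1.18%) and in 262 of the 15843 protein-coding genes (1.65%). The 10 genes were LAMP1, MCOLN1, CD63, CTSA, CTSD, CTSF, GAA, NEU1, GALNS and ARSB. The following 60 bases lie before the start of the genes among them whose values are described most fully, written 5′ to 3′ along the gene, with CACGTG in capitals.
LAMP1 (chr13:113297179-113297238, plus strand): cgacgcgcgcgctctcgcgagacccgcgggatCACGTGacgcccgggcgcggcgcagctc
MCOLN1 (chr19:7522556-7522615, plus strand): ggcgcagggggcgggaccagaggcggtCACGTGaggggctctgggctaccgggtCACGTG
CD63 (chr12:55729157-55729216, minus strand): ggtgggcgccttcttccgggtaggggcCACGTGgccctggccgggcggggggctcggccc
CTSD (chr11:1763942-1764001, minus strand): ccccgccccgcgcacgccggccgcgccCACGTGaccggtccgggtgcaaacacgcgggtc
CTSF (chr11:66568697-66568756, minus strand): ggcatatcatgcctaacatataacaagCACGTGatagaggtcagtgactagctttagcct
GAA (chr17:80101478-80101537, plus strand): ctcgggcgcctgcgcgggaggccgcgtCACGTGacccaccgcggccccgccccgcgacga
NEU1 (chr6:31862915-31862974, minus strand): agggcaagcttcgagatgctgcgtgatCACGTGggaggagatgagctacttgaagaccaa
LAMP1 held 6 copies of CACGTG in its 300 bases, the most of any member, and MCOLN1, CTSF, GAA, GALNS and CTSA held 2 each. The letters were not particular to the members. In other lysosomal lists, counted further below, CACGTG stood in 34.6% of genes for sorting and transport and 29.4% of mTORC1 and TFE regulators. It stood in 25.0% of V-ATPase subunits, 20.0% of other hydrolases and 0 of 4 cathepsin inhibitors. Such a match describes the letters only, and no binding was measured.

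Values are log2 intensities after background correction and quantile normalization unless stated otherwise. The arrays had median deposited intensities of 210.4 to 253.9 and detected 10325 to 10889 rows each at a detection p under 0.05. The 7166 rows detected on no array had medians of 182.1 to 192.2 on the first 8 arrays and 160.6 to 179.4 on the last 8, so the background itself was lower after 21 hours, and the part of this in the results was not tested beyond the comparison without that step. No 2 arrays held identical values. Of the 43 member probes, 35 were detected on all 16 arrays. The other tested probes were GALNS on 15 arrays, IDUA on 11, GAA on 5 and ARSB (ILMN_26948) on 3. CTSS and the second probes of ASAH1 (ILMN_27657) and ARSB (ILMN_27054) were detected on none.

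The epithelial character given by the labels was checked with marker genes. Of 8 basal epithelial markers, CDH1, EGFR, ITGB4, KRT17 and KRT5 each had a probe detected on all 16 arrays, while KRT14 was detected on 1. The luminal keratins KRT8, KRT18 and KRT19 were detected on all arrays, and ESR1 and PGR on none. Among 6 macrophage and blood markers, which can carry lysosomal genes with them, CSF1R and CD68 each had a probe detected on all 16 arrays. PTPRC was detected on at most 5 arrays by any of its 3 probes, and CD163 and LYZ on 1. The summed deposited intensity of that list was 3254 to 3451 at 0 to 9 hours and 3702 to 4301 at 36 to 45 hours. CD14 (log2 difference 1.75 ± 0.14, SE), CSF1R (0.46 ± 0.12) and CD68 (0.68 ± 0.15), itself a lysosomal membrane protein, were higher at 36 to 45 hours (limma adjusted p = 1.3e-07, 0.007 and 0.0027). The fibroblast markers COL1A1, COL3A1 and PDGFRB were detected on no array and DCN on at most 5 by any of its 3 probes. The endothelial markers CDH5 and VWF were detected on none, but PECAM1 was detected on 15 and was higher at 36 to 45 hours (0.84, adjusted p = 0.0003). The part of these markers in the results was not tested.

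As a median over probes, expression of the lysosomal genes was highest at both ends of the series and lowest in its middle. Each probe was set against its own mean over the series, and the median of these deviations over the 39 tested probes was 0.19 on the log2 scale at 0 hours, −0.04 at 9 hours, between −0.18 and −0.12 from 12 to 33 hours, and 0.15, 0.27, 0.28 and 0.17 at the last 4 arrays. Not every role followed this course. The same median over the 15 probes of glycosidases and sulfatases was −0.07, −0.11 and −0.30 at 3, 6 and 9 hours, the last being its lowest. For a test of the course, a natural cubic spline of time was fitted to each probe with limma, and time-dependent expression was called at an adjusted p under 0.05. It was called for 28 of the 39 member probes (71.8%), against 54.6% of all 11957 tested probes. The series was also divided into 4 windows of 4 consecutive time points, 0 to 9, 12 to 21, 24 to 33 and 36 to 45 hours, which were compared with limma. These windows hold different time points and not replicates, so their spread includes change within a window.

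At the first step, from 0–9 to 12–21 hours, 18 member probes fell (46.2%) and 2 rose (5.13%), CTSB and GLA. Over all tested probes 14.4% fell and 15.1% rose. The median log2 difference was −0.22 over the members and −0.0006 over all tested probes. At the second step, from 12–21 to 24–33 hours, no member rose or fell, against 0% and 0.0251% of all probes. The member differences ran from −0.18 to 0.45, the lowest limma adjusted p was 0.84, and 2 member probes and 585 of all probes had an unadjusted p under 0.05.

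At the third step, from 24–33 to 36–45 hours, 20 member probes rose (51.3%) and 3 fell (7.69%), namely GLA, PPT1 and one probe of CTSL. Over all tested probes 19.3% rose and 18.7% fell. The median log2 difference was 0.40 over the members and −0.0021 over all tested probes. Both a fall at the first step and a rise at the third were called for 12 member probes (30.8%), against 7.78% of all tested probes. These were the probes of CD63, SCARB2, CTSD, CTSF, CTSL2, TPP1, NEU1, NPC2, PSAP and GM2A and 1 of the 2 probes each of LAMP2 and SMPD1.

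From the first window to the last, 13 member probes were higher (33.3%) and 6 lower (15.4%), against 16.2% and 15.0% of all tested probes. The share of lower probes was thus near that of the whole array. The median log2 difference over the members was −0.0054, and that over all tested probes −0.02. With median scaling in place of quantile normalization the member counts were 16 higher and 2 lower, beside 23.4% and 8.61% of all probes. With that scaling 5 members rose and 14 fell at the first step, beside 23.5% and 8.61% of all probes, and 18 rose and 3 fell at the third, beside 14.4% and 24.5%.

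**Figure D1:**
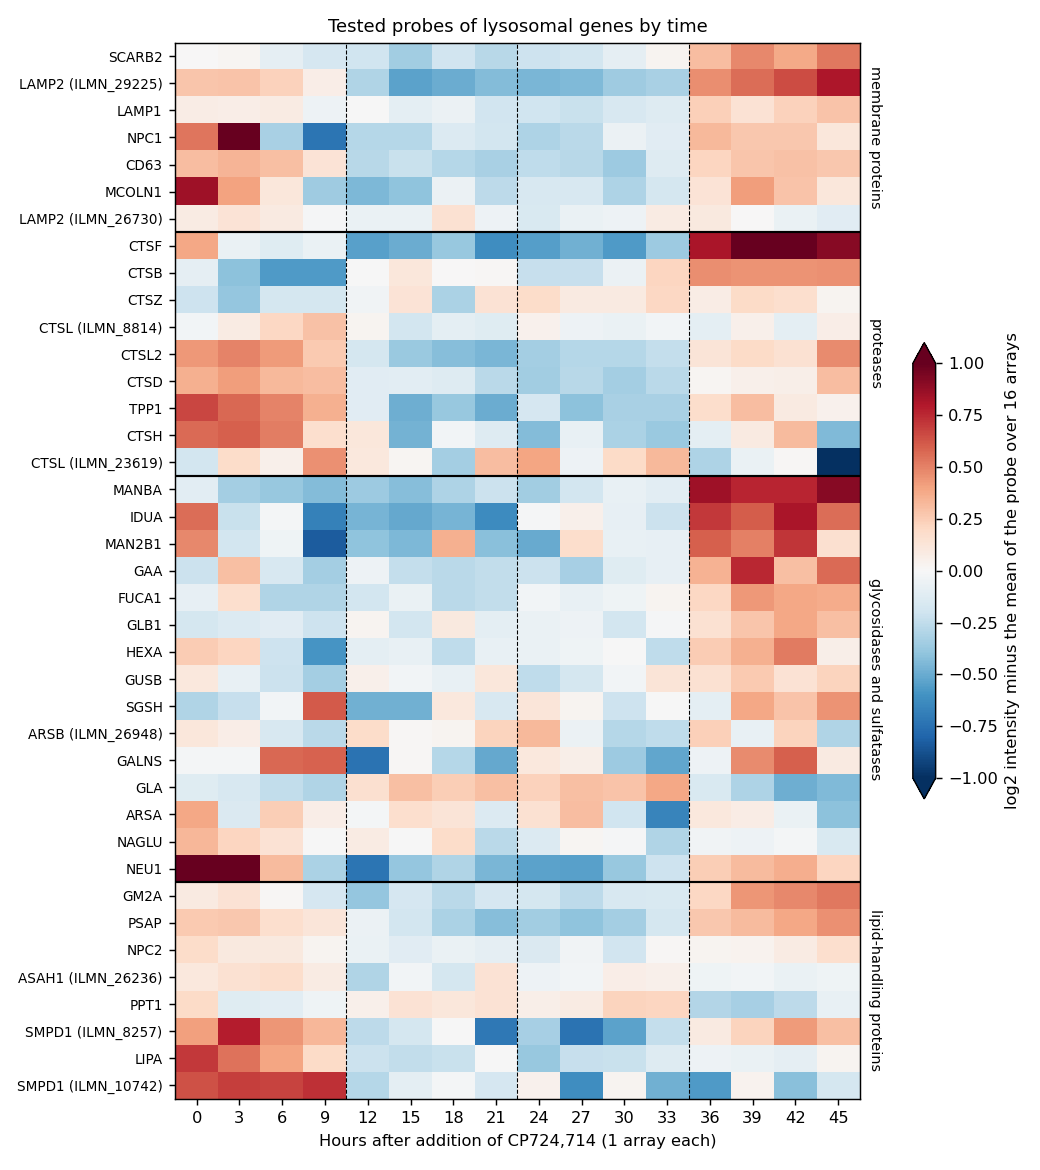
Log2 intensity of the 39 tested probes at each of 16 time points, minus the mean of the probe over the series, in 4 groups by role and within each by the difference between the last and first windows (top highest). Dashed lines part the 4 windows, and colours saturate at 1 log2 unit. Many rows, fewer among the glycosidases and sulfatases, are red at 0 to 9 hours, blue from 12 to 33 hours and red again from 36 hours, while GLA shows the opposite colours.

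The highest value of a probe lay at 0–9 hours for 18 of the 39 member probes (46.2%), against 39.9% of all tested probes. It lay at 36–45 hours for 16 (41.0%), against 25.3%, and at 12–21 and 24–33 hours for 1 (2.56%) and 4 (10.3%), against 21.1% and 13.7%. The lowest value lay at 0–9 hours for 11 member probes (28.2%), against 37.9%, and at 36–45 hours for 4 (10.3%), against 27.5%. At 12–21 and 24–33 hours it lay for 14 (35.9%) and 10 (25.6%), against 19.8% and 14.8%. The largest single step between neighbouring arrays led into 12 hours for 11 member probes (28.2%), against 17.4% of all tested probes. It led into 36 hours for 13 (33.3%), against 17.0%. These are counts over single arrays with no test.

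Among the membrane proteins, 4 of 7 tested probes fell at the first step (57.1%), against 14.4% of all tested probes. At the third step 4 rose (57.1%), against 19.3%, and 3 were higher at the end than at the start (42.9%), against 16.2%. LAMP1, which with LAMP2 makes up much of the protein of the lysosomal membrane, had log2 intensities of 14.62, 14.61, 14.63 and 14.49 at 0 to 9 hours and 14.54, 14.45, 14.49 and 14.35 at 12 to 21 hours. They were 14.35, 14.32, 14.39 and 14.41 at 24 to 33 hours and 14.78, 14.69, 14.77 and 14.83 at 36 to 45 hours. The last 4 arrays thus lay above all 12 others. LAMP1 rose by 0.40 ± 0.05 (SE) at the third step (limma adjusted p = 5.7e-06) and ended 0.18 ± 0.05 above its start (adjusted p = 0.008), a difference of 1.13-fold that was not called with a prior variance that ignored intensity (adjusted p = 0.059).

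LAMP2, which also serves in fusion of autophagosomes and in chaperone-mediated autophagy, was read by 2 probes that did not follow the same course. For ILMN_29225 the log2 intensities were 10.86, 10.87, 10.81 and 10.65 at 0 to 9 hours, 10.29, 10.05, 10.09 and 10.15 at 12 to 21 hours, and 10.13, 10.14, 10.23 and 10.26 at 24 to 33 hours. They then were 11.05, 11.14, 11.24 and 11.40 at 36 to 45 hours, above every earlier array. This probe fell by 0.66 ± 0.09 at the first step (limma adjusted p = 3.8e-05), rose by 1.02 ± 0.09 at the third (adjusted p = 2.3e-07, 2.03-fold) and ended 0.41 ± 0.09 above its start (adjusted p = 0.0015). For ILMN_26730 all 16 values lay between 9.80 and 10.11 with a median of 9.92, and the last window differed from the first by −0.10 ± 0.08 (adjusted p = 0.41), a difference that became 0.044 under median scaling. The gene has several splice forms, but which of them each probe reads is not given in the sources used here, and the difference between the probes was not tested.

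SCARB2, a membrane protein that also serves in the transport of a hydrolase to the lysosome, had 12.86, 12.87, 12.77 and 12.69 at the first 4 arrays, between 12.51 and 12.89 from 12 to 33 hours, and 13.17, 13.34, 13.24 and 13.39 at the last 4. It rose by 0.54 ± 0.07 at the third step (limma adjusted p = 8.9e-06) and ended 0.48 ± 0.07 higher (adjusted p = 4e-05, 1.40-fold). Its fall at the first step, 0.19 ± 0.07 (adjusted p = 0.038), was not called in 8 of 24 alternatives and was −0.03 under median scaling.

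The tetraspanin CD63, of late endosomes and lysosomes, had values of 12.78, 12.82, 12.78 and 12.61 in the first window, 12.12 to 12.35 in the 2 middle ones, and 12.69, 12.75, 12.77 and 12.74 in the last. The first and last windows overlapped, and both lay above the middle. It fell by 0.55 ± 0.06 (limma adjusted p = 6e-06) and rose by 0.52 ± 0.06 (adjusted p = 4.1e-06), and its last window differed from the first by −0.01 ± 0.06 (adjusted p = 0.91).

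MCOLN1, the calcium channel TRPML1 of the lysosomal membrane, went from 10.00 at 0 hours through 9.56 and 9.27 to 8.80 at 9 hours, so most of its range lay within the first window. Its values were 8.70 to 9.10 from 12 to 33 hours and 9.29, 9.57, 9.44 and 9.27 at the end. The fall at the first step was 0.55 ± 0.18 (limma adjusted p = 0.029), but without the 0 hour array it was 0.35 and not called (adjusted p = 0.084). Its difference at the third step was 0.44 ± 0.18 (adjusted p = 0.062).

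NPC1, which exports cholesterol from the lysosome, was 10.10 at 0 hours and 10.75 at 3 hours, then 9.25 at 6 hours and 8.84 at 9 hours. In deposited intensities this was a change from 1710.6 at 3 hours to 624.2 at 9 hours, and the highest value was 3.76-fold the lowest after normalization. From 12 to 33 hours it lay between 9.26 and 9.50, and the last 4 arrays were 9.89, 9.84, 9.84 and 9.68. The course was time-dependent by the spline (limma adjusted p = 0.014), but none of the 4 window comparisons passed an adjusted p under 0.05, with SEs of 0.26 that hold the change within the first window. NPC1 was singled out after its values were seen.

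**Figure D2:**
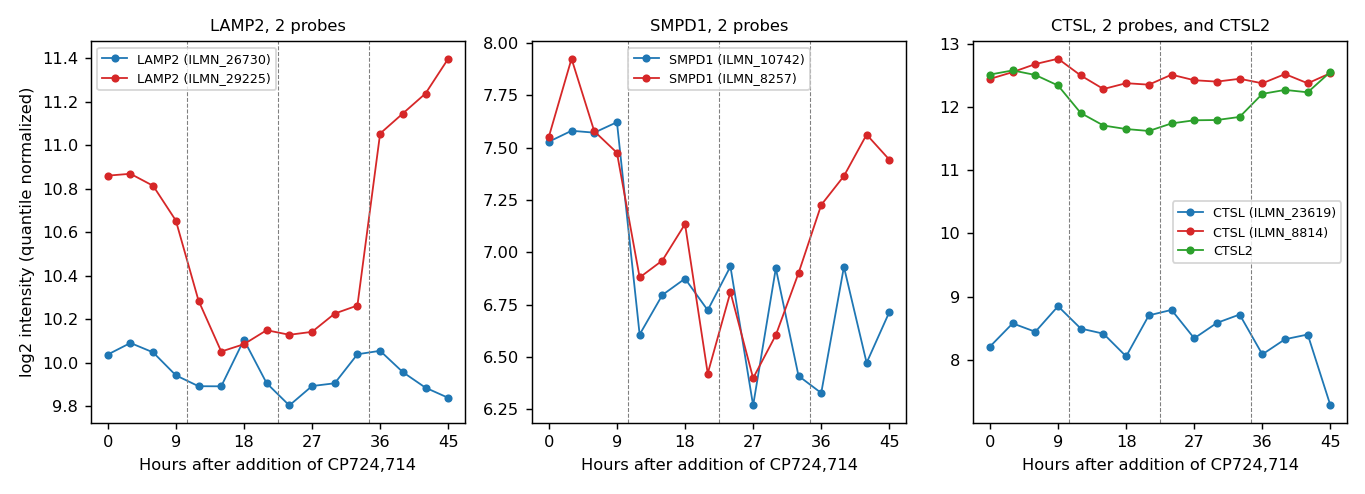
Log2 intensity of the 2 tested probes each of LAMP2 and SMPD1, and of the 2 probes of CTSL with the probe of its paralog CTSL2, at each of 16 time points. Dashed lines part the 4 windows. One probe of LAMP2 rises to 11.40 while the other stays between 9.80 and 10.11, and the probes of SMPD1 part after 33 hours.

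Among the proteases, 6 of 9 tested probes fell (66.7%) and 1 rose (11.1%) at the first step, against 14.4% and 15.1% of all probes. At the third 5 rose (55.6%) and 1 fell (11.1%), against 19.3% and 18.7%. At the end 3 were higher than at the start (33.3%), CTSB, CTSF and CTSZ, and 3 were lower (33.3%), CTSD, CTSH and TPP1. Of all probes 16.2% were higher and 15.0% lower. CTSB, the cysteine protease cathepsin B, had log2 intensities of 9.86, 9.54, 9.38 and 9.38 at 0 to 9 hours and of 9.94, 10.06, 9.95 and 9.96 at 12 to 21 hours. They were 9.72, 9.71, 9.89 and 10.16 at 24 to 33 hours and 10.41, 10.39, 10.39 and 10.41 at 36 to 45 hours. The level was lowest at 6 and 9 hours and highest in the last window, with no overlap between the first window and the second or the last. CTSB rose by 0.44 ± 0.11 at the first step (limma adjusted p = 0.0069) and by 0.53 ± 0.11 at the third (adjusted p = 0.0012), and ended 0.86 ± 0.11 above its start (adjusted p = 2.1e-05, 1.82-fold).

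CTSF, cathepsin F, another cysteine protease, had 9.08, 8.63, 8.58 and 8.64 in the first window and lay between 8.08 and 8.34 from 12 to 33 hours. It was 9.52 at 36 hours, a single step of 1.18 from 33 hours, and then 9.75, 9.77 and 9.61. Its fall at the first step was 0.54 ± 0.12 (limma adjusted p = 0.0023), its rise at the third 1.45 ± 0.12 (adjusted p = 1.7e-07, 2.74-fold), and its end lay 0.93 ± 0.12 above its start (adjusted p = 1.5e-05). The rise at the third step had the largest size of any member. CTSZ, a carboxypeptidase, had a lowest value of 10.39 at 3 hours, a median of 10.86 and a highest value of 10.98 at 33 hours. It was called at neither step but ended 0.35 ± 0.09 above its start (adjusted p = 0.0089), and without the second step this was 0.19 (adjusted p = 0.39).

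CTSD, the aspartic protease cathepsin D, had 14.83, 14.89, 14.80 and 14.78 at 0 to 9 hours, 14.36, 14.37, 14.35 and 14.21 at 12 to 21 hours, 14.12, 14.19, 14.13 and 14.20 at 24 to 33 hours, and 14.49, 14.52, 14.53 and 14.78 at the end. TPP1, a peptidase that removes tripeptides from the ends of proteins, had 10.79, 10.69, 10.61 and 10.47 at first, between 9.62 and 10.00 in the 2 middle windows, and 10.29, 10.43, 10.21 and 10.16 at the end. Both courses fell by 12 hours and came back in part. CTSD fell by 0.51 ± 0.06 (limma adjusted p = 1e-05) and rose by 0.42 ± 0.06 (adjusted p = 2.4e-05), and TPP1 fell by 0.89 ± 0.10 (adjusted p = 9e-06) and rose by 0.46 ± 0.10 (adjusted p = 0.0016). At the end CTSD was −0.24 ± 0.06 (adjusted p = 0.0039) and TPP1 −0.37 ± 0.10 (adjusted p = 0.01) relative to the start. Both calls were lost under median scaling (−0.16 and −0.22). They were also lost without the second step, with −0.09 for CTSD (adjusted p = 0.54) and −0.43 for TPP1 (adjusted p = 0.055).

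CTSH, an aminopeptidase of the cathepsin family, had 8.08, 8.11, 8.03 and 7.69 at the start, lay between 7.04 and 7.63 from 12 to 33 hours, and was 7.42, 7.61, 7.83 and 7.07 at the end. It fell by 0.59 ± 0.17 at the first step (limma adjusted p = 0.012) and ended 0.50 ± 0.17 lower (adjusted p = 0.03). The end call was lost in 9 of 27 alternatives, among them median scaling (−0.34, adjusted p = 0.13), no detection filter, and leaving out the array of 0, 3, 6, 36 or 45 hours. PPGB, the older symbol of CTSA, a carboxypeptidase that protects NEU1 in a complex, had 10.72, 10.60, 10.43 and 10.20 at the start, 9.54 to 9.89 from 12 to 33 hours, and 10.12, 10.10, 10.12 and 9.87 at the end. This probe fell by 0.72 (adjusted p = 0.0001), rose by 0.39 (adjusted p = 0.0075) and ended at −0.43 ± 0.11 (adjusted p = 0.0048).

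Cathepsin L and its paralog were read by 3 probes. CTSL2, the probe of cathepsin V, had values of 12.51, 12.58, 12.50 and 12.34, then 11.62 to 11.90 from 12 to 33 hours, and 12.21, 12.27, 12.23 and 12.55 at the end. It fell by 0.76 ± 0.08 (limma adjusted p = 6e-06) and rose by 0.52 ± 0.08 (adjusted p = 8e-05), with an end difference of −0.17 ± 0.08 (adjusted p = 0.13). The CTSL probe ILMN_8814 lay between 12.28 and 12.76 throughout with a median of 12.44, and fell by 0.23 ± 0.07 at the first step (adjusted p = 0.021), which was −0.05 under median scaling and not called. The CTSL probe ILMN_23619 lay between 8.06 and 8.85 until 42 hours and was 7.28 at 45 hours. Its fall at the third step, 0.58 ± 0.21 (adjusted p = 0.037), was 0.34 without the 45 hour array and not called (adjusted p = 0.15). Close paralogs can bind the same probe, and the difference between these 3 probes was not tested.

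**Figure D3:**
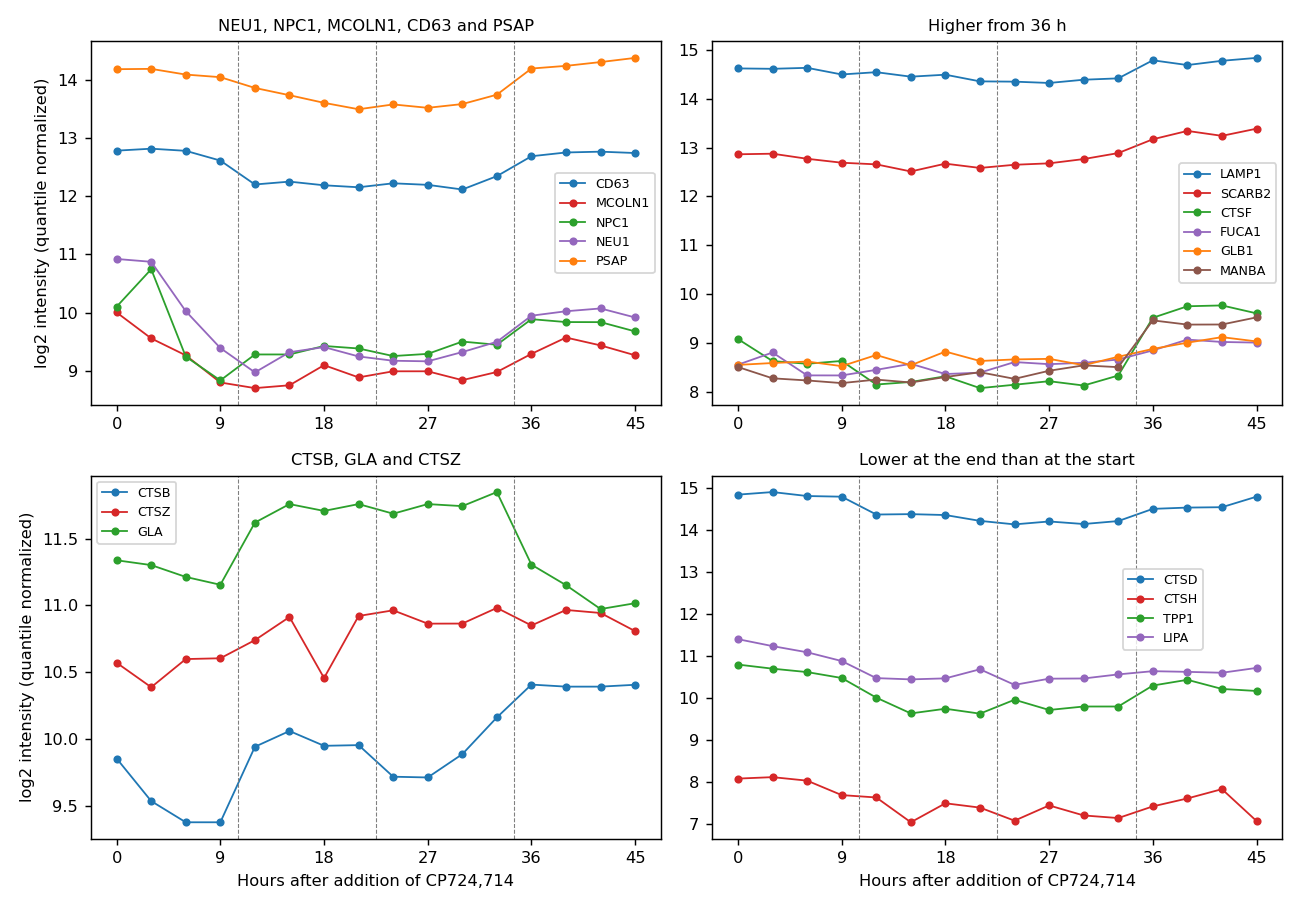
Log2 intensity by time for members that show the main courses, 1 line per probe and 1 array per point, with dashed lines between the 4 windows and a separate scale in each panel. NEU1 and NPC1 change most before 12 hours, CTSF and MANBA step up between 33 and 36 hours, GLA is high from 12 to 33 hours, and CTSD, TPP1, CTSH and LIPA end lower than they began.

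The glycosidases and sulfatases, which trim sugars and sulfate groups from glycans and glycolipids, moved mainly at the third step. Of 15 tested probes 2 fell (13.3%) and 1 rose (6.67%) at the first step, against 14.4% and 15.1% of all probes. At the third 7 rose (46.7%) and 1 fell (6.67%), against 19.3% and 18.7%. At the end 6 were higher (40%) and 0 lower, against 16.2% and 15.0%. MANBA, the β-mannosidase, had log2 intensities of 8.51, 8.28, 8.24 and 8.18 at 0 to 9 hours, 8.25, 8.20, 8.31 and 8.40 at 12 to 21 hours, and 8.27, 8.44, 8.55 and 8.51 at 24 to 33 hours. At 36 to 45 hours they were 9.47, 9.38, 9.38 and 9.53, above every earlier array. MANBA rose by 1.00 ± 0.10 at the third step (limma adjusted p = 1.3e-06) and ended 1.14 ± 0.10 higher (adjusted p = 4.8e-07, 2.20-fold), the largest difference from start to end among the members.

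IDUA, the α-L-iduronidase of heparan and dermatan sulfate breakdown, was dim, with deposited intensities of 221.2 to 346.5. It was detected on 3 of 4 arrays in the first window, on none in the second and on all 4 in the third and in the last. Its log2 intensities were 7.14, 6.36, 6.56 and 5.90 at the start and 7.29, 7.19, 7.40 and 7.14 at the end, so the windows only just parted, at 7.14. The end difference was 0.76 ± 0.18 (limma adjusted p = 0.0037), and 0.52 (adjusted p = 0.10) when only 0 and 3 hours were set against 42 and 45 hours. Without the second step the IDUA difference was 0.31 (adjusted p = 0.47). GAA, the acid α-glucosidase that degrades glycogen, was detected on 1 array of the first window, on none from 12 to 33 hours and on all 4 of the last. It was at least 1.39-fold higher at 36–45 than at 24–33 hours (adjusted p = 0.00082), where the lowest detected intensity of each array stood as the floor, and its measured means were 6.58 and 5.90. With that floor GAA was at least 1.3-fold higher at the end than at the start, where the measured difference was 0.60 ± 0.14 (adjusted p = 0.003). The measured difference was 0.39 (adjusted p = 0.14) with 0 and 3 hours against 42 and 45 hours. GAA was detected on 5 arrays and passed the detection filter only through the last window, where it was high. Its calls are therefore not independent of the filter.

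FUCA1, the α-fucosidase, lay between 8.34 and 8.81 until 33 hours and was 8.85, 9.07, 9.02 and 9.01 at the end. GLB1, the β-galactosidase, lay between 8.53 and 8.83 until 33 hours and was 8.88, 9.01, 9.12 and 9.04 at the end. For both, the last 4 arrays were above all earlier ones. FUCA1 ended 0.48 ± 0.11 (limma adjusted p = 0.0032) and GLB1 0.44 ± 0.09 higher (adjusted p = 0.0019), and the FUCA1 call was lost when only 0 and 3 hours were set against 42 and 45 hours (0.33, adjusted p = 0.071). GUSB, the β-glucuronidase, rose by 0.28 ± 0.10 at the third step (adjusted p = 0.03) and ended 0.33 ± 0.10 higher (adjusted p = 0.016), but its course was not called by the spline (adjusted p = 0.062). The GUSB rise was 0.13 under median scaling (adjusted p = 0.24), and its end difference 0.17 with 0 and 3 hours against 42 and 45 hours (adjusted p = 0.30), neither of them called.

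NEU1, the lysosomal sialidase, and GLA, the α-galactosidase A, took courses of their own and were singled out after their values were seen. NEU1 had 10.92, 10.87, 10.03 and 9.39 at 0 to 9 hours, 8.97, 9.32, 9.41 and 9.25 at 12 to 21 hours, 9.17, 9.16, 9.32 and 9.50 at 24 to 33 hours, and 9.95, 10.02, 10.07 and 9.92 at the end. Its deposited intensity was 1934.7 at 0 hours and 682.0 at 12 hours, and its highest value was 3.86-fold its lowest after normalization, the widest range of any member. It fell by 1.07 ± 0.24 at the first step (limma adjusted p = 0.0027) and rose by 0.70 ± 0.24 at the third (adjusted p = 0.027), a rise not called without the array of 24, 27, 39 or 42 hours.

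GLA had 11.34, 11.30, 11.21 and 11.15 at the start, 11.62, 11.76, 11.71 and 11.76 at 12 to 21 hours, 11.69, 11.76, 11.74 and 11.85 at 24 to 33 hours, and 11.30, 11.15, 10.97 and 11.02 at the end. Its middle windows lay above both ends with no overlap. It rose by 0.46 ± 0.08 at the first step (limma adjusted p = 0.00029) and fell by 0.65 ± 0.08 at the third (adjusted p = 4.9e-06), and no other member probe was called in these directions at both. GALNS, a sulfatase of keratan sulfate, was dim and was detected on 3 of 4 arrays at 12 to 21 hours. Its fall at the first step was 0.66 ± 0.21 (adjusted p = 0.022), and the call was lost without the array of 6, 9, 12 or 21 hours. MAN2B1, HEXA, SGSH, NAGLU, ARSA and the tested probe of ARSB passed no window comparison. Of these only MAN2B1, an α-mannosidase, was called by the spline (adjusted p = 0.023), with an end difference of 0.64 ± 0.24 (adjusted p = 0.051).

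Among the lipid-handling proteins, 6 of 8 tested probes fell at the first step (75%), against 14.4% of all probes. At the third 4 rose (50%) and 1 fell (12.5%), against 19.3% and 18.7%. At the end 1 was higher (12.5%) and 3 lower (37.5%), against 16.2% and 15.0%. PSAP, the precursor of the saposins that present lipids to hydrolases, had log2 intensities of 14.18, 14.19, 14.09 and 14.05 at the start, between 13.49 and 13.86 from 12 to 33 hours, and 14.19, 14.24, 14.31 and 14.38 at the end. The last 4 arrays lay just at or above the highest early one. It fell by 0.45 ± 0.07 (limma adjusted p = 0.00018) and rose by 0.67 ± 0.07 (adjusted p = 1.8e-06), with an end difference of 0.15 ± 0.07 (adjusted p = 0.11). GM2A, the activator protein for ganglioside breakdown, had 11.56, 11.61, 11.48 and 11.30 at the start, 11.09 to 11.32 in the middle, and 11.68, 11.91, 11.95 and 12.00 at the end. It rose by 0.60 ± 0.08 at the third step (adjusted p = 2.4e-05) and ended 0.39 ± 0.08 higher (adjusted p = 0.0016), and the fall at the first step was −0.09 under median scaling and not called.

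LIPA, the acid lipase of cholesteryl esters and triglycerides, had 11.39, 11.23, 11.08 and 10.87 at the start, between 10.31 and 10.68 from 12 to 33 hours, and 10.63, 10.62, 10.60 and 10.71 at the end. It fell by 0.63 ± 0.10 at the first step (limma adjusted p = 0.00016), its difference at the third was 0.19 ± 0.10 (adjusted p = 0.13), and it ended at −0.51 ± 0.10 (adjusted p = 0.0008). No array after 9 hours reached the level of the first 4. NPC2, the soluble carrier that hands cholesterol to NPC1, kept within 15.32 to 15.70. Its deposited intensities ran from 40671.2 to 54941.9, and its fall of 0.19 ± 0.05 (adjusted p = 0.0073) and rise of 0.17 ± 0.05 (adjusted p = 0.01) were not called when the prior variance ignored intensity. The rise was also not called under median scaling (0.12, adjusted p = 0.18).

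The probes of SMPD1, the acid sphingomyelinase, fell alike at the first step and parted at the third. For ILMN_10742 the values were 7.53, 7.58, 7.57 and 7.62 at the start, 6.61, 6.80, 6.87 and 6.72 at 12 to 21 hours, 6.93, 6.27, 6.92 and 6.41 at 24 to 33 hours, and 6.33, 6.93, 6.47 and 6.71 at the end. For ILMN_8257 they were 7.55, 7.92, 7.58 and 7.48, then 6.88, 6.96, 7.13 and 6.42, then 6.81, 6.40, 6.60 and 6.90, and last 7.23, 7.36, 7.56 and 7.44. The first stayed low at the end, and the second returned to near its start. The falls were 0.83 ± 0.16 (limma adjusted p = 0.00091) and 0.78 ± 0.16 (adjusted p = 0.0014), the differences at the third step −0.02 ± 0.16 (adjusted p = 0.93) and 0.72 ± 0.16 (adjusted p = 0.0016), and those at the end −0.96 ± 0.16 (adjusted p = 0.00018) and −0.23 ± 0.16 (adjusted p = 0.28). Both probes were dim, with deposited intensities of at most 401.2, and the difference between them was not tested.

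PPT1, which removes palmitate from proteins, fell by 0.39 ± 0.08 at the third step (limma adjusted p = 0.00073). Its difference from start to end, −0.22 ± 0.08 (adjusted p = 0.038), was lost in 10 of 27 alternatives, and its course was not called by the spline (adjusted p = 0.10). The detected probe of ASAH1, the acid ceramidase, lay between 8.59 and 9.06 and passed no comparison.

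TFEB, a transcription factor of lysosomal genes, was too dim to follow. Its deposited intensities ran from 166.0 to 249.4 with a median of 206.5, and it was detected on 2 of 16 arrays, at 36 hours (249.4) and 42 hours (225.8). The probe was not tested, and no statement on the level or activity of the factor follows from it.

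**Figure D4:**
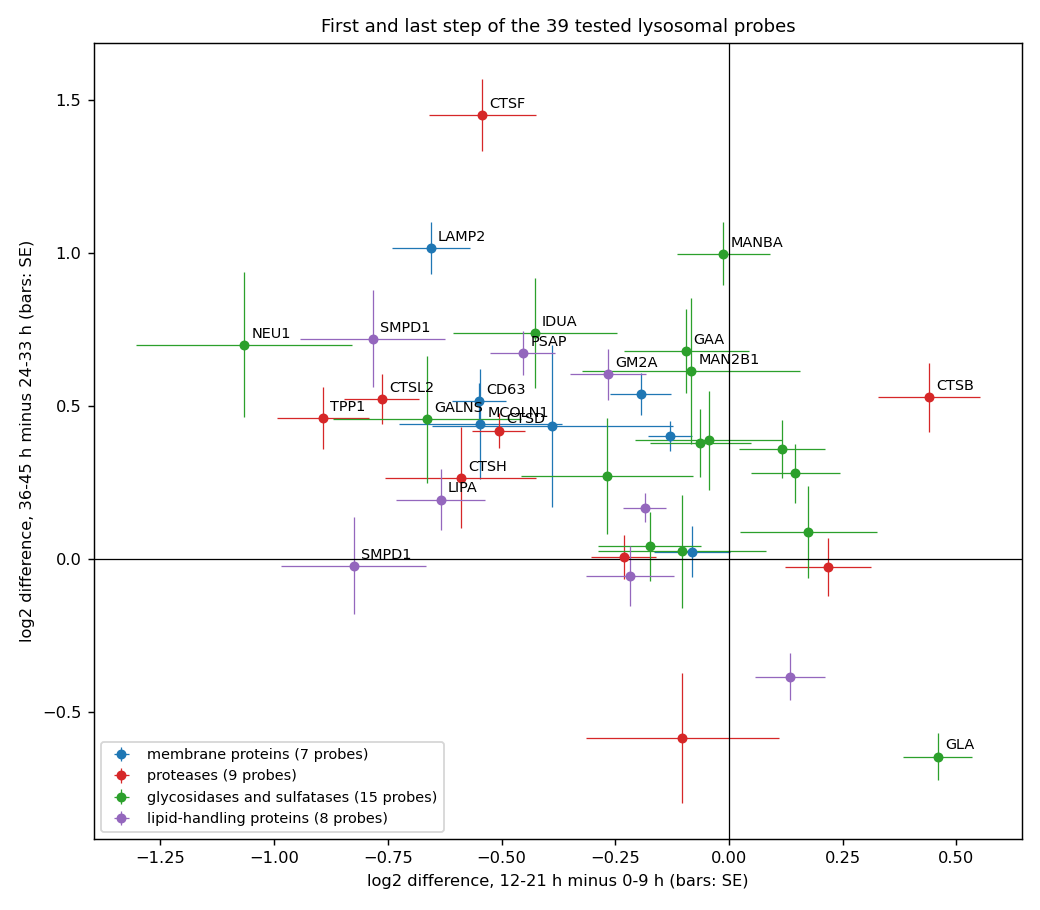
Log2 difference of each of the 39 tested probes at the first step (12–21 minus 0–9 hours) against that at the third (36–45 minus 24–33 hours), with bars of 1 SE and colours for the 4 roles. The 2 steps share no array. Most points lie in the upper left quadrant, lower at the first step and higher at the third, while CTSB lies at the upper right and GLA at the lower right.

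By promoter letters, CACGTG was found in 6 of the 15 member genes with a window whose probe fell at the first step and in 6 of the 16 whose probe rose at the third. Of all 27 tested members with a window, 9 held it. The share in genes that moved was therefore close to that in the tested members as a whole. LAMP1 and GAA, whose windows are printed above, rose at the third step and were not called at the first, MCOLN1 was called only at the first, and CD63, CTSD, CTSF and NEU1 were called at both.

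Other lysosomal genes on the array were counted in the same fits. Of 24 tested probes of other lysosomal hydrolases, 3 rose (12.5%) and 5 fell (20.8%) at the first step. At the third 11 rose (45.8%) and 2 fell (8.33%), and at the end 11 were higher (45.8%) and 2 lower (8.33%). Over all tested probes 15.1% rose and 14.4% fell at the first step, and 19.3% rose and 18.7% fell at the third. At the end 16.2% of them were higher and 15.0% lower. Under median scaling the first step had 7 rises and 1 fall, so its balance turned. With that scaling all tested probes also had more rises than falls there (23.5% and 8.61%). The largest at the end were CPVL, a carboxypeptidase-like protein (0.99 ± 0.10, limma adjusted p = 1.5e-06), and SIAE, a sialic acid esterase (0.89 ± 0.12, adjusted p = 3.7e-05), among those higher. Among those lower was CTSC, which activates granule proteases (−0.75 ± 0.16, adjusted p = 0.0016).

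Of 21 tested probes of V-ATPase subunits, 1 rose (4.76%) and 9 fell (42.9%) at the first step. At the third 11 rose (52.4%) and 1 fell (4.76%), and at the end 5 were higher (23.8%) and 6 lower (28.6%). In the same order the shares of all tested probes were 15.1%, 14.4%, 19.3%, 18.7%, 16.2% and 15.0%. ATP6V1B1, a subunit best known from acid-secreting epithelia, ended 2.15 ± 0.25 higher (limma adjusted p = 5.5e-06), and ATP6V1E2 0.85 ± 0.16 higher (adjusted p = 0.00071). The membrane subunits ATP6V0A2 (−1.07 ± 0.15, adjusted p = 3.3e-05) and ATP6V0C (−0.75 ± 0.13, adjusted p = 0.00022) were lower. Under median scaling 6 subunits were higher and 3 lower at the end, beside 23.4% and 8.61% of all probes. With that scaling 2 of the 21 rose and 3 fell at the third step, beside 14.4% and 24.5% of all probes. Under quantile or loess normalization 11 rose and 1 fell there. The count of rises thus depended on the normalization, which also shifted the shares of the whole array.

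Of 35 tested probes of sorting and transport proteins, 8 rose (22.9%) and 10 fell (28.6%) at the first step. At the third 10 rose (28.6%) and 5 fell (14.3%), and at the end 8 were higher (22.9%) and 4 lower (11.4%). The shares of all tested probes were, in that order, 15.1%, 14.4%, 19.3%, 18.7%, 16.2% and 15.0%. Falls at the third step and lower probes at the end were thus no more frequent than over the array. The balance at the first step turned here too, with 9 rises and 5 falls under median scaling, beside 23.5% and 8.61% of all tested probes. LMBRD1, a cobalamin exporter (0.70 ± 0.10, limma adjusted p = 5.4e-05), and CD68, given above, were the largest higher. ABCB9, a peptide transporter (−1.47 ± 0.31, adjusted p = 0.0017), and SLC36A1, an amino acid exporter (−1.06 ± 0.15, adjusted p = 4.2e-05), were the largest lower. This ABCB9 probe (ILMN_10252) was detected on 13 arrays, and its standard deviation within the first window was 0.88. A second ABCB9 probe (ILMN_12718) was detected on no array.

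Of 12 tested probes of the mTORC1 and TFE regulators at the lysosome, 1 rose (8.33%) and 4 fell (33.3%) at the first step. At the third 7 rose (58.3%) and 2 fell (16.7%), and at the end 4 were higher (33.3%) and 2 lower (16.7%). All tested probes had shares of 15.1%, 14.4%, 19.3%, 18.7%, 16.2% and 15.0% in the same order. TSC1, an inhibitor of mTORC1 signalling (0.93 ± 0.20, limma adjusted p = 0.0022), and the small GTPase RRAGB (0.84 ± 0.15, adjusted p = 0.0003) were higher. RRAGA, a close relative of RRAGB (−0.25 ± 0.07, adjusted p = 0.013), and RHEB, which activates mTORC1 (−0.19 ± 0.06, adjusted p = 0.024), were lower, and both calls were lost under median scaling (−0.15 and −0.10). Of 5 tested cathepsin inhibitors, 4 fell at the first step (80%) and 2 rose at the third (40%). At the end 0 were higher and 2 lower (40%), CST7 (−0.50 ± 0.16, adjusted p = 0.021) and CSTB (−0.26 ± 0.04, adjusted p = 0.00023). The CSTB call was lost under median scaling (−0.15, adjusted p = 0.052).

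**Figure D5:**
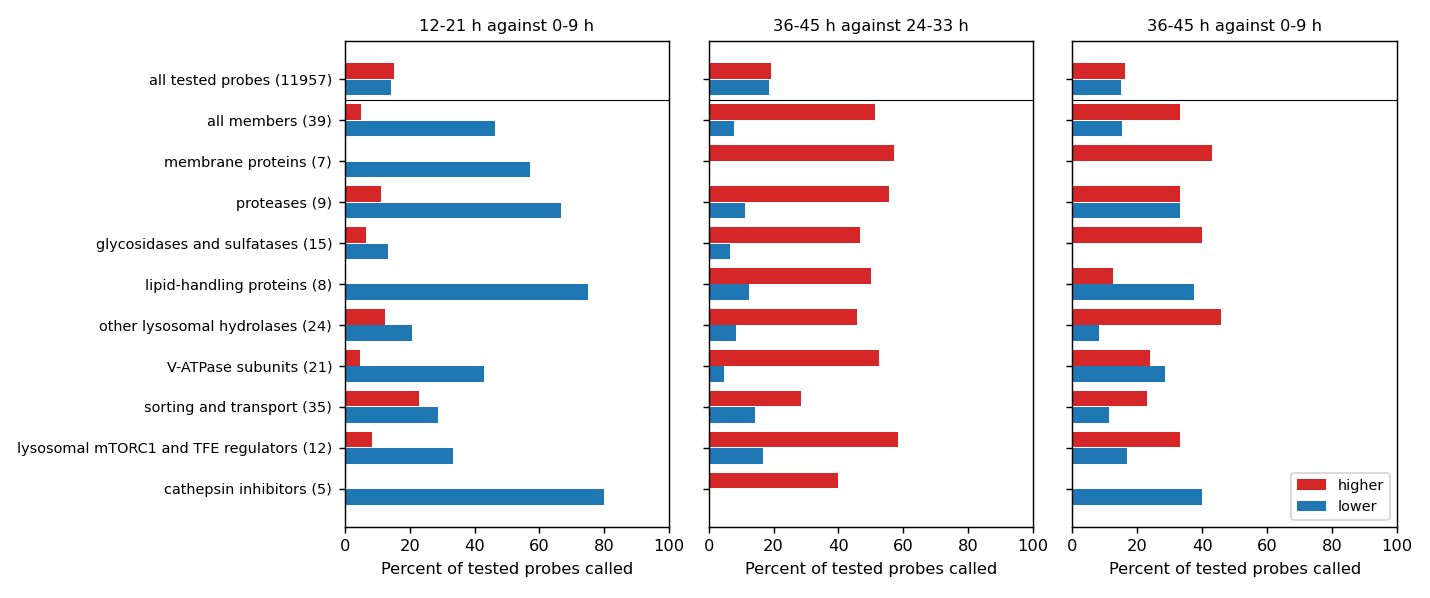
Percent of tested probes called higher (red) or lower (blue) in 3 window comparisons, for all tested probes, all member probes, the 4 roles and 5 other lysosomal lists, with the number of tested probes in parentheses. At the first step 46.2% of member probes were lower against 14.4% of all probes, and at the third 51.3% were higher against 19.3%.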

How the data were processed

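RNA from 16 cultures was measured on Illumina human Ref8v2 arrays, 1 for each time point. The authors deposited bead intensities on a linear scale, without normalization across arrays, and detection p-values. The methods name quantile normalization, and no background correction is given in the sources used here. Intensities were corrected with normexp (offset 16), with the level of the negative control beads estimated from detection p-values of the 19092 rows that stand for a single probe, quantile normalized and log2 transformed (R 4.3.3, limma 3.58.1, matplotlib 3.10.9). The offset understates the change of dim probes. The 11957 rows that were detected (p under 0.05) on 3 or more of the 16 arrays entered every fit.

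For time-dependent expression, limma's moderated F statistic was taken over a natural cubic spline with 3 degrees of freedom, and the 4 windows of 4 time points with limma contrasts. Both let the prior variance follow intensity, and used Benjamini-Hochberg adjustment over all tested probes, with calls under 0.05. Arrays have no counting depth, and the number of arrays limits the precision. P-values measure the spread around the curve or within windows, which may be technical, since no array had a replicate. The script was tested on simulated data with known changes.

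The members and lists were chosen with earlier results of these data known. Members past both tests, up to 12 in each direction, were described with LAMP1, LAMP2, CTSB, CTSD, CTSL, CTSL2 and TFEB, and from each other list the 2 largest called differences in each direction, apart from items not reported here. Alternatives were other background corrections, normalizations, filters, curves and contrasts, and leaving out each array. Symbols are those of the file, and promoter windows are from RefSeq (GRCh38.p14). The labels name no chip or hybridization batch, so none could be fitted.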

Additional observations from a re-analysis of the deposited data

How the results depend on the processing

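Leaving out each array in turn kept the 9 counts of called members within 1.5 times their values. Under a linear course of time, 7 of the 39 members were time-dependent in place of 28. Of all 11957 tested probes 1953 were, in place of 6533, so the member share was then close to that of the array. Under median scaling 2 members were lower at 36–45 than at 0–9 hours in place of 6, and 5 were higher at 12–21 hours in place of 2. Leaving out the step from 12–21 to 24–33 hours adds the first and the third step alone and so has a larger error. In that comparison 7 members were higher and 2 lower at the end, in place of 13 and 6. The share of all tested probes was not counted for it. The other 221 recomputed counts stayed within 1.5 times. Among the 21 probes described in full, the difference from start to end of LAMP2 (ILMN_26730), −0.10 and not called, became 0.044 under median scaling, and 22 of the other recomputed differences lost and 5 gained a call, with no change of sign. Calls lost were those of CTSH, TPP1, CTSD, IDUA, GAA, FUCA1, LAMP2 (ILMN_29225), GM2A, CTSZ and LAMP1, mostly under the settings named with them or without the second step. No paired analysis was possible because each time point has 1 array and the labels give no replicate numbers. Dim probes such as GAA, IDUA, GALNS and TFEB limit what can be said of them, since their intensities lie close to the background.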
